A study of Mus musculus with 6 samples.

Results

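The TGF-beta ligands Tgfb1, Tgfb2 and Tgfb3, the ligand-binding matrix protein Ltbp4, the receptors Tgfbr1, Tgfbr2 and Tgfbr3 and the TGF-beta-induced matrix gene Tgfbi were followed through single-cell RNA sequencing of the developing mouse lung. These 8 genes were listed by name, out of 31053 genes in each table, and each had UMIs (unique molecular identifiers, the counted transcripts) in all 6 libraries. The first 4 libraries held cells sorted from lungs of the reporter genotype Cxcl12DsRed/+ at embryonic day (E) 13.5, E15.5 and E18.5 and postnatal day (P) 8. The sort kept DsRed-positive cells without CD45 or EpCAM. The paper's results describe the sequenced cells as CD31-positive endothelial cells (ECs). Its methods also list CD31-negative, mesenchymal-enriched cells as collected. The other 2 libraries were whole E18.5 lungs labelled Cxcl12 heterozygous control (Cxcl12DsRed/+) and homozygous null (Cxcl12DsRed/DsRed). DsRed was knocked into the Cxcl12 locus itself, so by their labels the sorted lungs and the control keep 1 working copy, and the sort follows Cxcl12 activity in arterial ECs and in part of the mesenchyme. Several lungs were pooled for each sorted library. For the whole-lung data the paper speaks of 2 control and 2 null lungs, and "both whole lungs" below means the 2 libraries. Each condition had 1 library, so no test between conditions could be run and each value describes that library.

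TGF-beta ligands are secreted in a latent form, bound to their own propeptide and often tethered to the matrix through latent TGF-beta binding proteins such as LTBP4. Once released, a ligand binds the type II receptor TGFBR2, which recruits and activates the type I receptor TGFBR1, and Smad proteins carry the signal to the nucleus. TGFBR3, or betaglycan, is a co-receptor that presents ligand, TGF-beta 2 above all. In the lung the pathway is known for its part in branching, in vessel wall and elastic fibre assembly and in the formation of alveolar walls.

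The promoters of Tgfb1, Tgfb2 and Tgfbr2 are shown because each has a single listed start site and because the levels of these genes, given further on, were arranged over the cells in different ways. Each is the 250 bases before the start site that RefSeq gives on GRCm38.p6, and 6 of the 8 genes had an entry. Capitals mark matches on either strand to TATAAA (the TATA box), CACGTG (an E box), GGGCGG (a GC box) and CAGAC (the Smad box core), which do not overlap each other.
Tgfb1, chr7:25686752-25687001, plus strand: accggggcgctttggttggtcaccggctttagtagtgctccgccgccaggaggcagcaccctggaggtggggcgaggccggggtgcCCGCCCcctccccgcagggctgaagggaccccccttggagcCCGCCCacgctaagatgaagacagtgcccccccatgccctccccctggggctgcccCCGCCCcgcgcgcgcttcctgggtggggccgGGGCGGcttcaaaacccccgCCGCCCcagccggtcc
Tgfb2, chr1:186705990-186706239, minus strand: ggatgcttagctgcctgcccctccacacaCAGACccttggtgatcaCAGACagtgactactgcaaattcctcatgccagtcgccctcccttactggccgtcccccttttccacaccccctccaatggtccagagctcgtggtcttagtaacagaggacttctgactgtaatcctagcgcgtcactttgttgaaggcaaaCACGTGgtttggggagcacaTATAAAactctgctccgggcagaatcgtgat
Tgfbr2, chr9:116175364-116175613, minus strand: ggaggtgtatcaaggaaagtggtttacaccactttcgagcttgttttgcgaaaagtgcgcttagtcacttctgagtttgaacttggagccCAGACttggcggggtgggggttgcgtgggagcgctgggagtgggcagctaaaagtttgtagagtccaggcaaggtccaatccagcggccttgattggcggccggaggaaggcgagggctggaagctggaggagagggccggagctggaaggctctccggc
The Tgfb1 window held 5 GC boxes and no match to the other motifs. The Tgfb2 window had no GC box but held a TATA box 31 bases and an E box 51 bases before the start, and 2 Smad box cores. The Tgfbr2 window held a single Smad box core, 160 bases before the start. Of 32851 promoter windows of the same length, 12.4% held TATAAA, 6.02% CACGTG, 32.7% GGGCGG and 42.2% CAGAC, so the GC box and the Smad core are common by letters alone. These matches describe the sequence and were not tested as sites. The Tgfb2 window overlaps an exon of the annotation outside Tgfb2 itself, whereas the windows of Tgfb1 and Tgfbr2 overlap none.

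On GRCm38 the genes lie at chromosome 7 from 25687002 to 25705077 for Tgfb1, chromosome 1 from 186622792 to 186705989 for Tgfb2 and chromosome 12 from 86056745 to 86079041 for Tgfb3. Ltbp4 spans 27305136 to 27337692 on chromosome 7. Tgfbr1 lies on chromosome 4 from 47353222 to 47414931, Tgfbr2 on chromosome 9 from 116084293 to 116175360 and Tgfbr3 on chromosome 5 from 107106570 to 107289629. Tgfbi spans 56609523 to 56639562 on chromosome 13. The counted reads come from transcript 3′ ends, and for none of the 8 genes did the last 300 bases share a run of 60 bases with another gene. Tgfbr3 overlaps 3 annotated genes on its own strand, so a share of its UMIs could belong to those, and Tgfb2 and Tgfb3 overlap genes on the opposite strand.

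Several features of the libraries bear on what follows. They held 8845 to 13098 cell barcodes and 63746333 to 117522172 UMIs. ECs were taken as cells with at least 2 UMIs of Pecam1 and Cdh5 together, which gave 210 E13.5 cells, 9453 E15.5 cells, 9119 E18.5 cells, 8259 P8 cells, 3042 in the library labelled null and 2022 in the library labelled control. The sorted E13.5 library was therefore mostly mesenchymal-like, with 12426 of 12726 kept cells. Pairs of libraries shared 0.203% to 0.457% of the barcodes of the smaller one, except the whole lungs, which shared 140 barcodes or 1.58%. Cxcl12 went against the labels of the whole lungs, and the names of the deposited files give these genotypes the other way round. In their Gja4 ECs it stood at 990.8 CPM (UMIs per 1000000; exact 95% Poisson interval 974 to 1008) in the library labelled null and at 14.2 (11.01 to 17.97) in the library labelled control. If the labels are exchanged, every ratio between these libraries turns its direction, which was not tested. ECs made up 33.2% and 24.5% of the kept cells of the libraries labelled null and control, and the alveolar fibroblast-like cells described further on 14.7% and 18.03%. All intervals of CPM in the text are exact 95% Poisson intervals. Those of log2 ratios and of shares of cells are exact intervals of other kinds, named where they are described. All cover counting error alone.

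ECs were split into exclusive groups in the order Eln of at least 10 UMIs (Eln-high), Gja4, Car4 and Gpihbp1 of at least 2, and the rest. At E18.5 the Eln-high group carried Gkn3 at 184 CPM against at most 0.555 in the other groups, and Mgp at 2057, both genes of proximal arteries. Ednrb, an alveolar capillary (aCap) gene, reached 759 CPM in the Car4 group and at most 278 elsewhere. The Gja4 group was broad. It held the arterial gene Gja5 at 149 CPM, but also Plvap, a general capillary (gCap) gene, at 503, and made up 72.8% of ECs at P8. The 8 broad mesenchymal genes (collagens, Dcn, Pdgfra and the like) were also detected in the Eln-high group, each with UMIs, at a summed 1800, 852 and 546 CPM in the sorted E15.5, E18.5 and P8 libraries. In mesenchymal-like cells of the same libraries the sum was 12730, 18020 and 15010. At least 3 genes of another class were seen in 292 of 1513, 71 of 803 and 15 of 398 Eln-high cells, and in 285 of 407 in the library labelled null and 157 of 202 in the library labelled control. Values without these cells are given beside several of the results that they move, and the part of doublets or free RNA in them was not tested.

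The first question was how the members' endothelial levels compare across developmental time. Tgfb2 was lower at each later time point after E15.5 and Tgfb1 was lowest at E15.5, while both Tgfbr2 and Tgfbr3 stood higher at E18.5 and P8 than before. Tgfbi was higher at E18.5 than at E15.5 and P8. At E13.5 it stood at 18.9 CPM, and at 6.77 CPM without ECs showing other-class genes. Past 2-fold (with at least 10 CPM at 1 of the time points) were 2 of 6 members from E13.5 to E15.5, 3 of 7 from E15.5 to E18.5 and 1 of 7 from E18.5 to P8. Without ECs showing other-class genes the first count was 1. Of all genes tested, 7.15%, 13.7% and 8.48% were past 2-fold in these steps.

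Tgfb1 encodes the ligand made by most blood and endothelial cells. In ECs it stood at 210.3 CPM (189.7 to 233) at E13.5, then 74.2 (72.5 to 76.0) by E15.5, 129 (126 to 132) by E18.5 and 144 (141 to 147) by P8. The level at E15.5 was 2.82-fold below that at E13.5 (log2 interval -1.65 to -1.35). The intervals do not overlap at any step, but they cover counting error within 1 library per time point and not differences between libraries. The same low point at E15.5 was seen in the Gja4 group, which is part of these ECs, with 211, 74.5, 126 and 143 CPM. Mesenchymal-like cells held far less Tgfb1, between 11.6 and 31.0 CPM at the 4 time points, so that ECs were higher by 4.10, 2.62, 2.63 and 2.19 on the log2 scale. Between these cells 20.6%, 24.6%, 29.8% and 33.3% of all genes tested were past 2-fold at the 4 time points.

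Tgfb2 encodes the ligand most tied to mesenchyme, epithelium and the heart valves. In ECs it stood at 104 CPM (89.4 to 119.8) at E13.5, then 115 (113 to 118) by E15.5, 52.0 (50.2 to 53.9) by E18.5 and 33.1 (31.7 to 34.6) by P8. The step from E15.5 to E18.5 was the one past 2-fold (log2 ratio -1.14, -1.21 to -1.09), and from E13.5 to P8 the log2 ratio was -1.63. In mesenchymal-like cells the order differed, with 137, 191, 115 and 226 CPM. ECs and mesenchymal-like cells were thus close at E13.5 (log2 ratio -0.40) and far apart at P8 (-2.75). The timing also differed between EC groups. In the Gja4 group Tgfb2 went from 156 CPM at E15.5 to 61.9 at E18.5 (log2 ratio -1.32), whereas Eln-high ECs held 90.5 and 96.1 CPM at those time points and 32.1 at P8 (E18.5 to P8, -1.57). Without the Eln-high cells showing other-class genes the E15.5 level was 57.1 CPM. Gpihbp1 ECs held between 13.9 and 18.3 CPM in the libraries from E15.5, and 47.5, 23.8 and 28.8 CPM with each gate on its own, which lets Gja4 and Eln-high cells into the group.

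Tgfb3 was close to absent from ECs, at 4.99 CPM (2.28 to 9.48) at E13.5, then 2.18 (1.894 to 2.497) by E15.5, 1.60 (1.29 to 1.95) by E18.5 and 1.00 (0.770 to 1.29) by P8. Without ECs showing other-class genes the levels were 0.967, 0.521, 1.15 and 0.819 CPM, so no order in time was read. Mesenchymal-like cells held 21.9, 51.3, 54.7 and 65.7 CPM. Among EC groups the Eln-high group held 9.34 CPM at E15.5, but 1.80 CPM without cells showing other-class genes. At such levels no difference between EC groups was read.

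Ltbp4, the latency protein, stood in ECs at 299 CPM (274 to 325) at E13.5, then 163 (161 to 166) by E15.5, 176 (172 to 179) by E18.5 and 154 (151 to 158) by P8. No step passed 2-fold in ECs as a whole. In mesenchymal-like cells it was highest at E18.5, at 342 CPM (321 to 365), between 226 at E15.5 and 129.6 at P8.

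Tgfbr1, the type I receptor, was the steadiest member. It stood at 35.0 CPM (26.9 to 44.7), 29.8 (28.7 to 30.9), 32.1 (30.6 to 33.5) and 26.0 (24.8 to 27.4) in ECs of the 4 time points. Its log2 ratio between neighbouring time points stayed between -0.29 and 0.10. The type II receptor Tgfbr2 stood at 25.5 CPM (18.7 to 34.1) at E13.5, then 47.6 (46.2 to 49.0) by E15.5, 88.2 (85.8 to 90.6) by E18.5 and 89.5 (87.2 to 91.9) by P8. The first 2 steps had log2 ratios of 0.89 and 0.88, short of 2-fold, and P8 was higher than E13.5 by 1.79. Within groups the second step was 0.45 in Gja4, 0.47 in Eln-high, 1.27 in Gpihbp1 and 1.81 in the remaining ECs, while Car4 ECs, at 226 CPM, went from 8 cells at E15.5 to 569 at E18.5. Of all genes tested 28.4% passed 2-fold between E13.5 and P8. Mesenchymal-like cells showed a like order for Tgfbr2, with 24.0, 38.4, 71.5 and 73.0 CPM.

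Tgfbr3, the co-receptor, stood at 6.66 CPM (3.44 to 11.6) at E13.5, then 7.22 (6.69 to 7.78) by E15.5, 26.0 (24.7 to 27.3) by E18.5 and 22.7 (21.5 to 23.9) by P8. The difference from E15.5 to E18.5 was 1.78 on the log2 scale, and it was present in several EC groups taken alone, at 1.91 in Gja4, 1.502 in Gpihbp1 and 1.73 in the remaining ECs. In those groups 13.7%, 19.9% and 26.3% of all genes tested passed 2-fold. Eln-high ECs were the exception, with 3.88, 6.82 and 16.2 CPM from E15.5 on, so that they passed 2-fold in the later step (1.19) and not in the earlier one (0.74), where 9.80% and 9.72% of all genes did. Mesenchymal-like cells stood at 12.6 CPM at E15.5 and 46.1 at E18.5.

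Tgfbi encodes a secreted matrix protein that is induced by TGF-beta in many cells. In ECs it stood at 18.9 CPM (13.1 to 26.4) at E13.5, then 5.05 (4.61 to 5.52) by E15.5, 19.2 (18.1 to 20.4) by E18.5 and 3.78 (3.31 to 4.29) by P8. All 3 steps passed 2-fold, with log2 ratios of -1.80, 1.83 and -2.21. The E13.5 value rests in part on ECs that also showed genes of another class, since it was 6.77 CPM without those 59 of 210 cells, and the step to E15.5 then no longer passed 2-fold. A level at E18.5 above both neighbouring time points was shared by the Gja4 group (3.04, 10.9 and 2.10 CPM) and the Gpihbp1 group (7.56, 44.5 and 7.60 CPM). Mesenchymal-like cells held 110.2, 53.7, 89.7 and 872 CPM, the last from 70 cells.

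**Figure D1:**
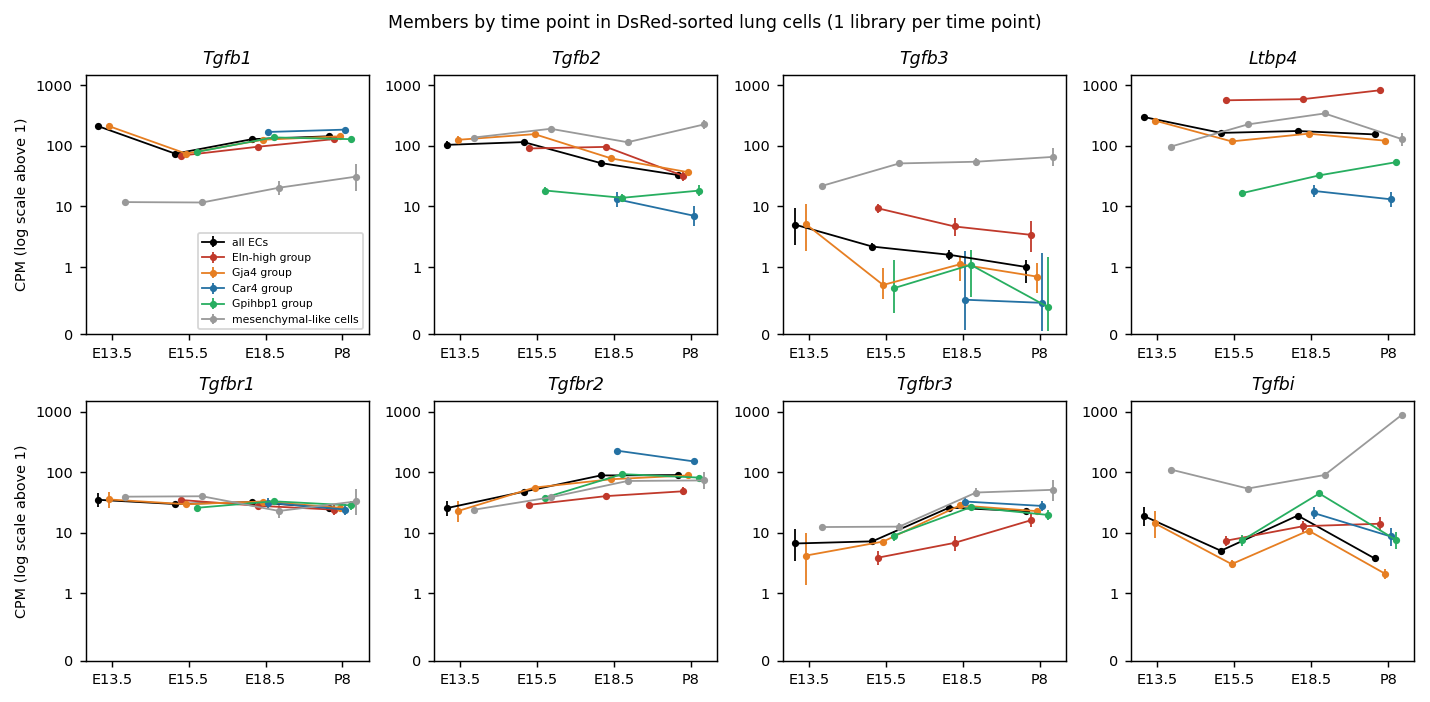
Level of each of the 8 genes in CPM (symmetric log axis) in the 4 sorted libraries, by time point, for all ECs, the EC groups and mesenchymal-like cells, with bars for the 95% Poisson interval of each point. At every time point Tgfb1 lies higher in ECs than in mesenchymal-like cells and Tgfb3 lower, and Tgfbr3 in ECs goes from 7.22 CPM at E15.5 to 26.0 at E18.5.

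The second question was where in the endothelium each member is found. Each group was compared with the other ECs of its own library. Ltbp4 was the member that separated the groups most, and Tgfb2 and Tgfbr2 also differed between them, while Tgfb1 and Tgfbr1 differed less. A stricter count took members past 2-fold one way in every sorted library from E15.5 that held the group. It gave 1 of 5 members tested in Eln-high ECs (Ltbp4, higher), 2 of 6 in Car4 ECs (Ltbp4 and Tgfb2, lower), 1 of 5 in Gpihbp1 ECs (Ltbp4, lower), 0 of 5 in Gja4 ECs and 0 of 6 in the remaining ECs. By the same count 3.22% of all genes tested were higher in Eln-high ECs, 2.43% lower in Car4 ECs and 0.849% lower in Gpihbp1 ECs, and 0.714% and 0.148% differed one way in Gja4 and in the remaining ECs.

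In Eln-high ECs Ltbp4 stood at 564 CPM (552 to 576) at E15.5, then 589 (572 to 607) by E18.5 and 826 (797 to 855) by P8. These levels were 2.61, 2.33 and 2.90 above the other ECs on the log2 scale, and they were higher still without the cells showing other-class genes, at 684, 619.5 and 866 CPM. The Gja4 group came next among the named groups, with 118, 159 and 122 CPM. Gpihbp1 ECs held 16.6, 32.6 and 53.8 CPM (log2 ratios -3.45, -2.65 and -1.59), and Car4 ECs 18.04 and 13.1 in the later libraries (-3.33 and -3.60). With each gate on its own these were 43.6, 64.3 and 76.0 CPM in Gpihbp1 and 39.3 and 33.7 CPM in Car4 ECs, still past 2-fold lower (log2 ratios -2.68 to -2.19). From Eln-high to Car4 ECs the level thus differed by more than an order of magnitude. In single cells thinned to 2000 UMIs at E18.5, Ltbp4 was found in 68.7% (65.3 to 71.9, exact Clopper-Pearson) of 801 Eln-high cells and in 3.04% (1.78 to 4.83) of 559 Car4 cells. Unthinned, at median depths of 8418 and 6006 UMIs, the shares were 97.8% and 10.9%. No cell type that should lack Ltbp4 was at hand in this library. In monocyte-like cells of the whole lungs, where the free-RNA adjustment described further on took Ltbp4 to 0, the thinned shares were 3.22% and 0.211% at median depths of 15113 and 14689 UMIs, so the share in Car4 cells is not read as cells expressing the gene.

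Tgfb2 was low in Gpihbp1 and Car4 ECs and higher in Gja4 and Eln-high ECs. At E15.5 it stood at 156 CPM (153 to 159) in Gja4 ECs and at 18.3 (16.1 to 20.8) in Gpihbp1 ECs. The Gja4 group was higher than the other ECs by 1.02 at E13.5, then 1.61 by E15.5, 0.66 by E18.5 and 0.81 by P8 on the log2 scale. Gpihbp1 ECs lay lower from E15.5 on, at log2 ratios of -2.80, -2.09 and -0.89, as did Car4 ECs at E18.5 and P8 (-2.02 and -2.24). Eln-high ECs differed in direction with time, at -0.40, 1.06 and -0.04, and without the cells showing other-class genes at -1.07, 1.08 and -0.55. In both whole lungs the same groups stood apart, with Tgfb2 at 57.3 and 69.6 CPM in Gja4 ECs against 12.4 and 12.5 in Gpihbp1 ECs of the libraries labelled null and control, the last being 7.14 CPM without cells showing other-class genes. After the authors' SoupX adjustment for free RNA the Gpihbp1 ECs held 6.15 and 6.54 CPM.

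Tgfbr2 was highest in Car4 ECs. It stood at 226 CPM (212 to 242) there at E18.5 and 150.4 (139 to 162) at P8, against 76.4 and 88.3 in Gja4, 92.7 and 81.3 in Gpihbp1 and 40.2 and 48.3 in Eln-high ECs. The remaining ECs came nearest at E18.5, with 136.9 CPM (125 to 149.5), and held 85.6 at P8. The log2 ratio of Car4 to the other ECs at E18.5 was 1.52 (1.42 to 1.63), and at P8 it was 0.82 (0.70 to 0.94). Eln-high ECs were lower than the others at E15.5, E18.5 and P8, with log2 ratios of -0.81, -1.23 and -0.93. In the whole lungs Car4 ECs again held the most, with 152 CPM in each library, but Eln-high ECs held 88.8 and 91.2 CPM, close to the other groups. There most Eln-high cells showed other-class genes, and without them the level in the library labelled null was 35.1 CPM. In the library labelled control too few such cells were left.

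Tgfb1 lay within 0.5 of the other ECs on the log2 scale in every group and sorted library from E15.5, with groups between 68.8 and 79.4 CPM at E15.5, between 96.5 (89.6 to 104, Eln-high) and 169 (Car4) at E18.5 and between 106 and 185 at P8. Car4 ECs were at the top at E18.5 and P8 (log2 ratios 0.42 and 0.40). Tgfbr1 ranged from 24.0 to 40.0 CPM over all groups and these time points, and its log2 ratio passed 0.5 in 1 of them, the remaining ECs at P8 (0.62). Tgfbr3 was lowest in Eln-high ECs in each of these libraries, and at E18.5 the log2 ratio was -1.997 (6.82 CPM against 28.7 in the others, and 4.03 without the cells showing other-class genes). Tgfbi was highest in Gpihbp1 ECs at E18.5, at 44.5 CPM (40.6 to 48.6), 1.68 above the other ECs. With each gate on its own Gpihbp1 ECs held 28.2 CPM (26.4 to 30.1), against 32.5 (26.9 to 38.9) in the remaining ECs. At P8 Tgfbi was highest in Eln-high ECs, at 14.1 CPM, but without 15 cells showing other-class genes no UMI was left among 383 cells, which allows up to 1.03 CPM.

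**Figure D2:**
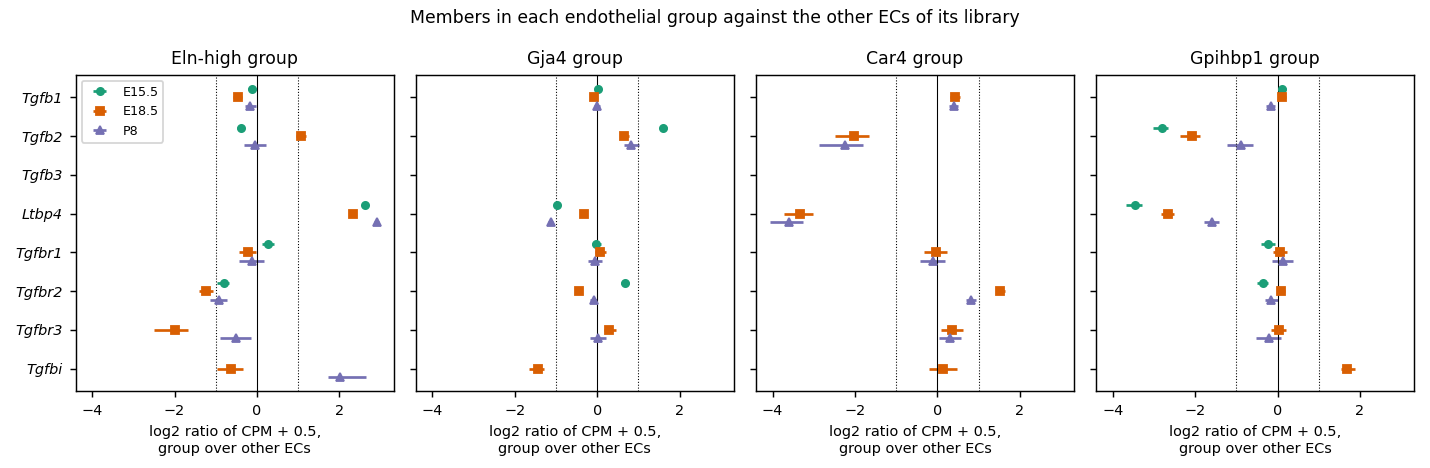
Log2 ratio of each EC group (Eln-high, Gja4, Car4 and Gpihbp1) over the other ECs of the same sorted library, for the 8 genes at E15.5, E18.5 and P8, with 95% intervals. Ltbp4 lies at 2.33 to 2.90 in Eln-high ECs and at -3.60 to -1.59 in Car4 and Gpihbp1 ECs, and Tgfb1 stays between -0.47 and 0.42.

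The third question was which cells of the whole E18.5 lung hold the ligands and which the receptors. Cells were classed by lists of 8 markers each, and the names end in -like. A cell had to show at least 3 markers and lead the next list by at least 2. The lead was chosen after the data had been seen, and 456 of 794 and 602 of 1261 myofibroblast-like cells lay at that limit in the libraries labelled null and control. So did 93 of 159 and 52 of 117 smooth muscle-like cells, with myofibroblasts as the next list. Of 22 further genes known for these classes, 16 were highest in their own class in each library. Both genes for adventitial fibroblasts (Ly6a and Cd34) were highest in ECs, which also express them, and Tnc for smooth muscle and F13a1 for monocytes were highest in myofibroblast-like and macrophage-like cells. Kcnk3 for pericytes was highest in myofibroblast-like cells of the library labelled null. Igf1 for myofibroblasts was highest in smooth muscle-like cells of the library labelled control. Bpifa1 for airway secretory cells was highest in alveolar type 2 (AT2)-like cells of the library labelled null and in no class of the other. The 12 groups (ECs and 11 classes) with at least 50 cells in both libraries are given below, values first for the library labelled null, then for the library labelled control. One way in both libraries, 56 of 96 pairs of group and member were past 2-fold against all other cells, as were 25.9% of the pairs of group and gene over all genes tested.

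Tgfb1 was led by immune cells. Monocyte-like cells held 389.8 and 390.2 CPM, macrophage-like cells 288 and 283, and ECs 193 and 197, and these 3 places were separate by their intervals in both libraries. As counted, myofibroblast-like cells followed with 65.6 and 62.0, and the other classes lay between 4.25 and 53.5 CPM. Tgfb2 had another order. Alveolar type 1 (AT1)-like cells led with 239.9 (214 to 268) and 252 (231 to 275) CPM. Smooth muscle-like cells (133 and 122), alveolar fibroblast-like cells (108 and 143), myofibroblast-like cells (76.8 and 101) and pericyte-like cells (74.5 and 83.9) came next. The intervals of myofibroblast-like and pericyte-like cells overlapped in both libraries, and in the library labelled control each of these 4 classes overlapped its neighbour. Monocyte-like cells, at the top for Tgfb1, were at the bottom for Tgfb2 with 2.56 and 4.93 CPM. Tgfb3 was highest in smooth muscle-like (51.0 and 49.0), adventitial fibroblast-like (38.9 and 41.0) and myofibroblast-like cells (33.0 and 32.6), with at most 19.4 CPM in any other group. The intervals of neighbours among these 3 overlapped.

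Ltbp4 was highest in adventitial fibroblast-like cells, at 691 (660 to 724) and 878 (802 to 959) CPM, followed by smooth muscle-like cells at 324 and 401, alveolar fibroblast-like cells at 291 and 299.6 and myofibroblast-like cells at 279.7 and 285. ECs as a whole held 132 and 108, but their Eln-high cells 381 and 309, and 759 in the library labelled null without cells showing other-class genes. Tgfbr1 was highest in monocyte-like cells (122 and 150.5) and macrophage-like cells (75.7 and 80.2) and lowest in airway cells. Tgfbr2 was spread widely, and the intervals of neighbours in its order overlapped throughout. Its highest class held 113 CPM in each library, the adventitial fibroblast-like cells in the library labelled null and the alveolar fibroblast-like cells in the other, and 8 groups lay above 55 CPM in both. The epithelial-like classes were lower, down to 19.4 and 15.8 CPM in airway secretory-like cells.

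Tgfbr3 and Tgfbi were both led by myofibroblast-like and smooth muscle-like cells. For Tgfbr3 these held 243.5 and 238 CPM and 154 and 166 CPM, against 32.6 and 40.0 in ECs and 3.07 and 2.60 in monocyte-like cells. For Tgfbi they held 1523 and 894 CPM and 1032 and 475 CPM. With a marker lead larger by 1 gene, smooth muscle-like cells fell short of 2-fold over all other cells for both genes. Their log2 ratios went from 1.53 and 1.01 to 0.67 and 0.79 for Tgfbi. For Tgfbr3 they went from 1.09 and 1.02 to 0.77 and 0.98. For Tgfbi macrophage-like cells (434 and 229) and monocyte-like cells (342 and 188) came next, and pericyte-like and fibroblast-like cells were low, at 5.34 to 30.2 CPM. Macrophage-like cells also held the broad mesenchymal genes at a summed 1905 and 1408 CPM, against 245 and 121 in monocyte-like cells. After SoupX adjustment macrophage-like cells still held Tgfbr3 at 76.3 and 48.6 CPM. The part of mesenchymal RNA in their Tgfbi level was not tested. ECs held 112 and 103 CPM of Tgfbi, against 19.2 CPM in the sorted E18.5 ECs. After SoupX adjustment the levels were 76.8 and 43.4 CPM, and without ECs showing other-class genes they were 44.5 (41.9 to 47.3) and 74.3 (69.8 to 78.9) CPM, in the opposite order. The adjustment lowered 34 and 46 of the 96 levels by over 1.5 times in the libraries labelled null and control, 12 and 17 of them to 0. In alveolar fibroblast-like cells Tgfb1 stood at 27.3 and 23.9 CPM as counted and at 2.79 and 2.40 after the adjustment, and in myofibroblast-like cells at 50.6 and 22.8. Adjusted Tgfb1 in AT1-like cells was 23.2 and 59.9 CPM, so in the library labelled control these lay above myofibroblast-like cells. Adjusted Tgfbr3 in ECs was 22.1 and 15.1 CPM, with the order of the libraries turned, and it was 0 in monocyte-like cells, as was Tgfb2. Adjusted Tgfbr2 in airway secretory-like cells was 4.49 and 0 CPM.

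**Figure D3:**
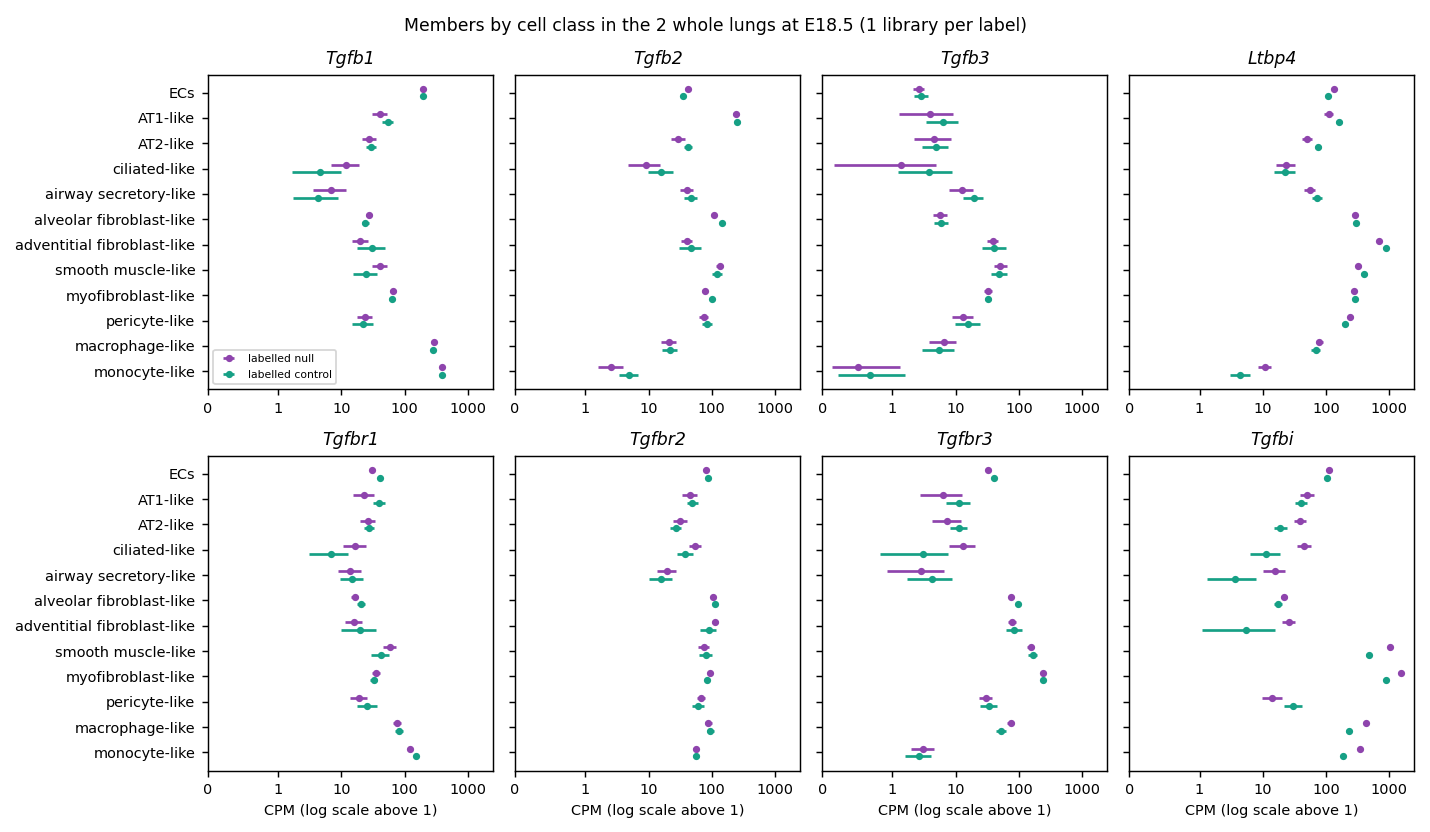
Level of each gene in CPM (symmetric log axis) in 12 cell groups of the whole E18.5 lungs, with 95% intervals, for the libraries labelled null and control. Both libraries put monocyte-like cells first for Tgfb1 (389.8 and 390.2 CPM), AT1-like cells first for Tgfb2 and myofibroblast-like cells first for Tgfbr3 and Tgfbi.

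The fourth comparison set the library labelled null against the library labelled control, with the contradiction of Cxcl12 above standing beside each direction. Over all kept cells 0 of 7 members tested passed 2-fold, as did 0 of 7 in ECs, where 0.546% and 0.857% of all genes did. Tgfbi had the largest ratio of these over all cells, 366 against 239 CPM (log2 ratio 0.62), and Tgfb2 was lower, at 60.4 against 77.6 (-0.36). With SoupX-adjusted counts these ratios were 0.45 and -0.57, so that Tgfbi no longer had the largest. Over the 12 groups 10 of 85 tested pairs were past 2-fold, of which 6 were Tgfbi, against 3.59% of the pairs over all genes. With adjusted counts 11 pairs passed, and 3 of these were among the 10 (Tgfbi in AT2-like and pericyte-like cells and Tgfbr1 in ciliated-like cells).

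Tgfbi was higher in the library labelled null in each of the classes that carry most of it. Myofibroblast-like cells held 1523 CPM (1491 to 1555) against 894 (874 to 914), a log2 ratio of 0.77. Smooth muscle-like cells held 1032 (980 to 1086) against 475 (432 to 522), or 1.12, macrophage-like cells 434 (409 to 460.0) against 229 (210.5 to 249), or 0.92, and monocyte-like cells 342 (329.7 to 356) against 188 (178 to 198), or 0.86. At least 1.5-fold higher were 1.78% of genes in myofibroblast-like, 12.4% in smooth muscle-like, 6.13% in macrophage-like and 3.24% in monocyte-like cells. At least 1.5-fold lower, the direction that counts if the labels are exchanged, were 1.56%, 8.12%, 3.89% and 1.02%. With SoupX-adjusted counts the log2 ratios were 0.45, 0.89, 1.03 and 1.30. With a marker lead larger by 1 gene the ratio in smooth muscle-like cells was 0.49. The macrophage-like cells also held mesenchymal genes, as given above, and the part of these in their ratio was not tested. In ECs no direction was read, since the log2 ratio was 0.12 as counted, 0.82 with adjusted counts and -0.73 without ECs showing other-class genes. Pericyte-like cells went the other way, with 14.03 against 30.2 CPM (-1.08). SoupX removed 18.1% of the UMIs of the library labelled null and 39.7% of those of the other, so the estimated free RNA differed between the libraries, and the adjusted values are the measure of it given here.

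For several ligands and receptors the ratio depended on the adjustment. As counted, Tgfb1 stood within 0.03 on the log2 scale in ECs, macrophage-like and monocyte-like cells, whereas with adjusted counts its log2 ratios were -0.26, -0.23 and -0.30. Adjusted Tgfb1 was higher in the library labelled null in myofibroblast-like cells (1.14) and lower in AT1-like cells (-1.35). Tgfb2 was lower in the library labelled null in alveolar fibroblast-like cells (108 against 143 CPM, -0.40) and myofibroblast-like cells (76.8 against 101, -0.39), and with adjusted counts the ratios were -0.70 and -0.61. Tgfbr1 was lower in ECs (30.3 against 40.3 CPM, -0.41) and monocyte-like cells (122 against 150.5, -0.30), or -0.41 and -0.61 adjusted. Tgfbr2 as counted lay between -0.31 and 0.53 in every class and EC group. Adjusted, it stood at 24.7 against 1.33 CPM in AT2-like cells (3.78) and at 46.8 against 9.03 in ciliated-like cells (2.31). Several Tgfbi pairs past 2-fold rested on low counts or few cells. After the adjustment Tgfbi was 0 CPM in ciliated-like and airway secretory-like cells of both libraries. In adventitial fibroblast-like cells, 234 and 59 in number, it was then 6.32 against 0 CPM. The pairs past 2-fold of members other than Tgfbi rested on low counts or few cells as well. They were Tgfb1, Tgfbr1 and Tgfbr3 in ciliated-like cells (11.7 against 4.51, 16.5 against 6.76 and 13.1 against 3.01 CPM, from 64 and 60 cells) and Ltbp4 in monocyte-like cells (10.7 against 4.38), where 5.99% and 1.25% of all genes passed 2-fold. After the adjustment Tgfb1 and Tgfbr3 in ciliated-like and Ltbp4 in monocyte-like cells were 0 in both libraries, and Tgfbr1 in ciliated-like cells was 13.7 against 0 CPM. With a marker lead larger by 1 gene, ciliated-like, adventitial fibroblast-like and airway secretory-like cells fell under 50 cells in a library, so 6 of the 10 pairs had no value, and the other 4 did not pass. Among EC groups Tgfbr3 was lower in Car4 ECs (21.4 against 48.1 CPM, from 144 and 52 cells), where 11.1% of all genes passed. Adjusted, this was 11.3 against 16.5 CPM (-0.53), short of 2-fold.

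**Figure D4:**
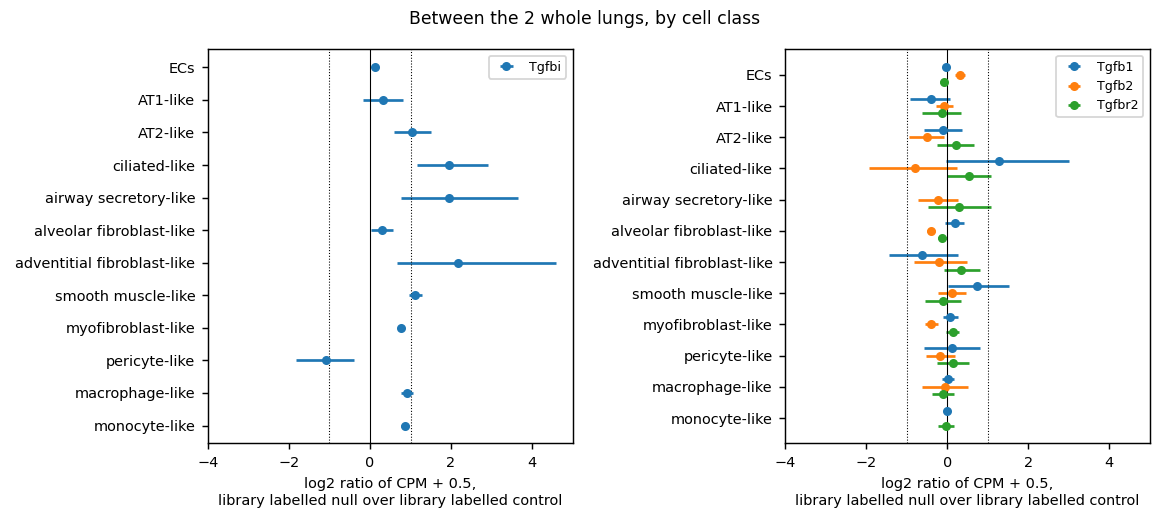
Log2 ratio of the library labelled null over the library labelled control by cell class, with 95% intervals, for Tgfbi on the left and Tgfb1, Tgfb2 and Tgfbr2 on the right. Tgfbi lies at 0.77 to 1.12 in myofibroblast-like, smooth muscle-like, macrophage-like and monocyte-like cells, whereas Tgfb1 as counted lies within 0.03 of 0 in ECs, macrophage-like and monocyte-like cells.

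A list of 47 other genes of the pathway was described in the same way, by counts beside all genes. It was chosen with earlier results of these data known, so a share above that of all genes is not a test of the list. From E13.5 to E15.5, 3 of 36 tested were past 2-fold higher and 5 lower in ECs (median log2 ratio -0.29 against -0.09 over all genes), as were 2.60% and 4.55% of all genes. Nrros, a tether of latent TGF-beta 1 in myeloid cells, went from 16.7 to 54.6 CPM, Bambi, a decoy receptor, from 33.9 to 105, and Itgb5, an integrin subunit, from 24.4 to 4.83. Cells showing other-class genes made up 28.1% of ECs at E13.5 and 4.834% at E15.5, and their part in this step was not tested. From E15.5 to E18.5, 8 of 38 were higher and 5 lower (median 0.31 against 0.18), as were 8.93% and 4.80% of all genes. The latency and activation genes Itgb5 (4.83 to 37.9 CPM) and Lrrc32 (6.27 to 32.3) were higher, and Fbn2 (40.8 to 10.5) and Fn1 (207 to 73.1) lower. From E18.5 to P8, 4 of 38 were higher and 7 lower (median 0.03 against 0.04), as were 4.17% and 4.31% of all genes. The feedback inhibitors Skil (58.3 to 159 CPM) and Smurf2 (48.7 to 113) were among those higher.

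Among the groups given here, Eln-high ECs had the largest share of these genes past 2-fold higher. The group is set by Eln and the list was chosen with earlier results known, so no enrichment is read. Against the other ECs 18 of 39 were higher and 2 lower at E15.5, 17 of 39 and 3 at E18.5, and 13 of 37 and 4 at P8 (median log2 ratios 0.92, 0.64 and 0.27 against 0.07, -0.03 and -0.07 over all genes). Of all genes tested 8.42%, 7.26% and 6.52% were higher and 2.58%, 5.99% and 4.81% lower. Among them were Tagln (286 against 4.52 CPM at E18.5), a smooth muscle gene and TGF-beta target, and Htra1 (556 against 16.4), a protease that acts on TGF-beta and on LTBPs. Nrros (27.9 against 193) and Col4a1 (184 against 983) were lower. The mesenchymal genes seen in this group, given above, move with this count, and their part in it was not tested. Car4 ECs had 4 of 38 higher and 12 lower at E18.5 (median -0.31 against -0.07 over all genes), where 3.96% and 5.99% of all genes were. At P8 they had 2 of 35 higher and 9 lower (median -0.21 against 0.00), against 2.44% and 2.96% of all genes. At E18.5 Itgb5 stood at 243 against 23.7 CPM and Bambi at 308 against 112, while Fbn1 (5.93 against 239) and Htra1 (2.32 against 89.2) were lower. In Gpihbp1 ECs 0 of 34, 1 of 38 and 0 of 35 were higher and 12, 10 and 6 lower (medians -0.69, -0.36 and -0.11 against -0.08, -0.04 and -0.00), and of all genes 1.67%, 2.65% and 0.958% were higher and 5.30%, 4.04% and 1.31% lower. In Gja4 ECs 0 were higher in any of these libraries and 10 of 34, 9 of 38 and 7 of 36 lower (medians -0.19, -0.16 and -0.16 against -0.02, 0.02 and -0.00), and of all genes 0.972%, 0.903% and 0.0849% were higher and 3.25%, 3.26% and 1.75% lower. For Car4, Gpihbp1 and Gja4 ECs the other ECs include the Eln-high group with its mesenchymal genes. The part of that group in these lower counts was not tested. Between the whole-lung libraries 2 of 39 were higher in ECs of the library labelled null and 0 lower, as were 0.297% and 0.560% of all genes. These were Htra1 (60.9 against 24.8 CPM) and Dcn (13.1 against 5.21). Dcn is also one of the 8 broad mesenchymal genes, whose summed level in these ECs was 1195 CPM in the library labelled null and 957 in the library labelled control. The part of these genes in the count was not tested.

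The genes whose pattern was most like each member were sought over 51 groups and classes of the libraries, which share libraries and free RNA, by Pearson correlation of log2(CPM + 1) among 13244 genes. Tgfb1 was closest to Arhgap25 (0.93), Inpp5d (0.91) and Fli1 (0.91), genes of blood and endothelial cells. Tgfb3 was closest to Fzd1 (0.92), Pdgfrl (0.92) and Efs (0.90), and Tgfbr3 to Mylk (0.91), Pros1 (0.90) and Hoxb5 (0.89). Fbn1 (0.86) and Fstl1 (0.84) were among the 3 genes closest to Ltbp4. Tgfb2 (Hsd17b10, Tmed1 and Zfp266), Tgfbr1 (Atp6v0a1, Cmtm7 and Myo9b), Tgfbr2 (Sbf2, Acap2 and Iqsec1) and Tgfbi (Fam105a, Crispld2 and Trim36) had nearest genes at 0.81 to 0.86. Among the members Tgfb2 and Ltbp4 were most alike (0.75), followed by Tgfbr2 and Tgfbr3 (0.69) and by Tgfb1 and Tgfbr1 (0.68). Tgfb1 and Tgfb3 ran most against each other (-0.60).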

How the data were processed

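Single-cell libraries were made with 10x 3′ v3 chemistry. The authors deposited counts, as a matrix of UMIs per gene and cell for each of the 6 libraries, and for both whole lungs also expected counts, which are not whole numbers, after removal of estimated free RNA with SoupX. The submitters' processing notes name Cell Ranger 3.1, Seurat 3.2.2 and mm10. Per the file headers the sorted E15.5, E18.5 and P8 libraries were counted with Cell Ranger 3.0.2 and the sorted E13.5 library and both whole lungs with 3.1.0, so the version changes between E13.5 and E15.5 and between sorted and whole lungs, and its part in those differences was not tested. The protocol text of the whole lungs repeats the sort, but both held immune-like and epithelial-like cells, so they were treated as unsorted, as their titles read.

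Cells with at least 700 genes and 0.5% to 10% mitochondrial UMIs were kept, and no doublet caller was run. UMIs were summed over the cells of a group of at least 50 cells and given as CPM with exact 95% Poisson intervals. Log2 ratios are of CPM + 0.5. Their intervals are exact conditional intervals of the ratio without the 0.5. "Past 2-fold" needs at least 10 CPM in 1 of the groups, and genes with that level are the ones tested. CPM were counted at transcript ends and were not compared between genes. With 1 library per condition no p-value was computed. Mesenchymal-like cells of the sorted libraries are cells below the EC gate with at least 3 broad mesenchymal genes. Cells were thinned to 2000 UMIs for shares of cells. Whole-lung classes used 15 lists of 8 markers.

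All members are named. Of the pathway list, names come from the 3 genes with the largest ratio in each direction, and the 3 genes most alike are named per member. Some genes that this rule picks are not reported here. Members and lists were chosen with earlier results of these data known. The scripts were tested on simulated counts. Python 3.11.15, numpy 2.4.6, scipy 1.17.1, pandas 2.3.3 and matplotlib 3.10.9 were used. Alternatives covered gates, classes, filters, pseudocount, fold, cell filters, cycling cells, cells with other-class genes, per-cell means and SoupX-adjusted counts.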

Additional observations from a re-analysis of the deposited data

Results flagged for a closer look

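The co-receptor Tgfbr3 stood on opposite sides in Eln-high ECs of different libraries. In the sorted E18.5 library it was lower than in the other ECs (log2 ratio -1.997), whereas it was higher by 1.55 in the library labelled null and by 1.18 in the library labelled control. This difference was not tested. Most Eln-high cells of the whole lungs showed genes of another class, and without them the log2 ratio in the library labelled null was -1.30.

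Between the whole-lung libraries, Tgfbr3 was lower in the library labelled null in Car4 ECs (log2 ratio -1.15) and higher in ciliated-like cells (1.95). The difference between these cell types was not tested. With SoupX-adjusted counts neither passed 2-fold, since the log2 ratio in Car4 ECs was -0.53 and Tgfbr3 was 0 in ciliated-like cells of both libraries.

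Tgfbi was higher in the library labelled null by log2 ratios of 1.12 in smooth muscle-like, 2.17 in adventitial fibroblast-like, 1.94 in ciliated-like, 1.94 in airway secretory-like and 1.03 in AT2-like cells, and lower in pericyte-like cells (-1.08). The opposite directions were not tested against each other. With a marker lead larger by 1 gene the log2 ratio was 0.49 in smooth muscle-like, -0.33 in AT2-like and -0.30 in pericyte-like cells, short of 2-fold, and the other 3 groups had fewer than 50 cells in a library and gave no value. After SoupX adjustment Tgfbi was 0 in ciliated-like and airway secretory-like cells of both libraries. In adventitial fibroblast-like cells it was 6.32 and 0 CPM, under the 10 CPM needed for a call. In AT2-like and pericyte-like cells it stayed past 2-fold, with log2 ratios of 1.345 and -1.712. In smooth muscle-like cells it was 1210 and 654 CPM.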

How the results depend on the processing

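Of 600 alternative values of ratios past 2-fold, 596 kept their direction and 550 stayed past 2-fold. Values equal to the reported one are left out here, and groups of under 50 cells or under 10 CPM on both sides gave none. Of 1278 alternative values of the other ratios, 74 went past 2-fold. No paired analysis was possible because each condition had 1 library and no result came from a test. With a filter of 50 CPM, the members past 2-fold were 1 from E13.5 to E15.5, 1 from E15.5 to E18.5 and 0 from E18.5 to P8, since fewer members were tested. Without ECs showing other-class genes the first of these counts was 1, and in Eln-high ECs of the library labelled null Tgfbr3 and Tgfbi turned to -1.30 and -0.80 from 1.55 and 2.25. With each gate on its own, 2 members in place of 0 passed in Gja4 ECs, and Ltbp4 at P8 turned from -1.13 to 1.15, since Eln-high cells then count as Gja4 cells. Between the whole lungs, 10 pairs past 2-fold became 0 with a marker lead larger by 1 gene, 5 with a pseudocount of 5 CPM and 19 at 1.5-fold, and Tgfbi in AT2-like cells turned to -0.33 from 1.03. In ECs Tgfbi went from 0.12 to -0.73 without cells showing other-class genes, added after seeing the data. With the larger lead 6 of the 10 pairs had no value, since their groups fell under 50 cells, and the other 4 did not pass. With SoupX-adjusted counts 11 pairs passed, 3 of them among the 10. Without the barcodes found in both whole lungs, an alternative added after seeing the data, 10 pairs passed. Leaving out haemoglobin, mitochondrial and ribosomal genes gave levels at a median of 1.36 times those reported. Low counts limit Tgfb3 in ECs and all members in ciliated-like cells.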
